A study of Mus musculus with 9 samples.

Results

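Proteoglycans are core proteins that carry long sulfated sugar chains. The 10 genes described here belong to proteoglycan families and are called core protein genes. Whether each of their proteins carries such chains was not measured. The genes fall into 7 of the stromal leucine-rich type (Dcn, Lum, Bgn, Fmod, Ogn, Aspn and Prelp) and 3 of the cell-surface heparan sulfate type (Sdc1, Sdc4 and Gpc3). They were chosen by gene name, which found 14 probes among the 41174 gene probes of the array, and all 10 are among the 18262 genes tested. RNA of cells from mouse mammary tumours was hybridised to 9 dual-colour Agilent arrays, of which 5 hold the Fzd8-CRD group and 4 the control group. The source label reads MMTV Wnt-1 and MMTV-Her2 for every array. In these transgenic models the mouse mammary tumour virus (MMTV) promoter directs Wnt-1, a secreted ligand, or Her2, a growth factor receptor, to mammary epithelium. The sources used here do not say which model each array came from, so tumour model and treatment cannot be told apart. In both groups the freshly isolated cells had been sorted as GFP-, meaning without green fluorescent protein. Fzd8-CRD is a free form of the cysteine-rich part of Frizzled 8, a Wnt receptor, and blocks signalling by taking up Wnt proteins outside the cell. The treatment protocol names the inhibitor for all 9 arrays, and what the controls received, the age of the mice, the dose and the duration are not given in the sources used here. The design text calls the arrays biological replicates. The comparison asked which genes differ in RNA level between inhibitor-treated and control tumour cells.

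Small leucine-rich proteoglycans are secreted by connective tissue cells, bind fibrillar collagen and growth factors such as TGF-beta, and set how collagen fibrils assemble. Syndecans cross the cell membrane and glypicans are held on it by a lipid anchor. Their heparan sulfate chains bind Wnt and fibroblast growth factor ligands and present them to receptors, and mice that lack syndecan 1 resist mammary tumours driven by Wnt-1.

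Each value is the log2 ratio, on 1 array, of tumour RNA in the Cy5 dye to the pooled reference in the Cy3 dye. The labels disagree on what the reference is, and ratios are therefore compared between groups of arrays and are not read as levels. In the Cy5 dye, the share of probes well above background, as the scanner software marks them, was 52.4% to 60.0% with Fzd8-CRD and 63.8% to 70.8% in controls. The 4 control arrays lay on 1 slide and the 5 Fzd8-CRD arrays on 4 other slides, which were scanned 367 and 378 days later, so slide and treatment cannot be told apart. Control replicate 2 stood apart, with correlations of 0.618 to 0.737 with the other arrays over all genes, against 0.898 to 0.979 among the other controls. The epithelial genes Epcam, Krt8, Krt18, Krt14, Krt5 and Cdh1 were well above background on all 9 arrays. In a cell population of this kind, fewer cells of a type and less RNA per cell cannot be told apart.

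Of the 10 genes, 1 passed the test: Prelp was higher with Fzd8-CRD. Over all genes, 14.3% were called in either direction and 6.59% were called higher, by limma with Benjamini-Hochberg adjustment at 0.05, so a count of 1 in 10 lies near the background. Among the stromal type, which includes Aspn, a gene that passed the filter on dim probes mainly through the controls, Prelp was called. In this type 5 of 7 differences were below 0, where 10399 of all 18262 genes were below 0. The median difference of the stromal type was -0.31 on the log2 scale, and without control replicate 2 it was -0.0039. Among the cell-surface type 0 of 3 were called and all 3 differences were above 0, where 7863 of all 18262 genes were above 0. The lowest of them, Sdc4, was 0.021, and its second probe gave -0.042. The median of the cell-surface type was 0.46, or 0.43 without control replicate 2. The median over all 18262 genes was -0.07. At an unadjusted p under 0.05, 1 of the 3 cell-surface genes (Gpc3, with a 95% confidence interval of 0.022 to 1.85) and 2 of the 7 stromal genes (Lum and Prelp) would pass.

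**Figure D1:**
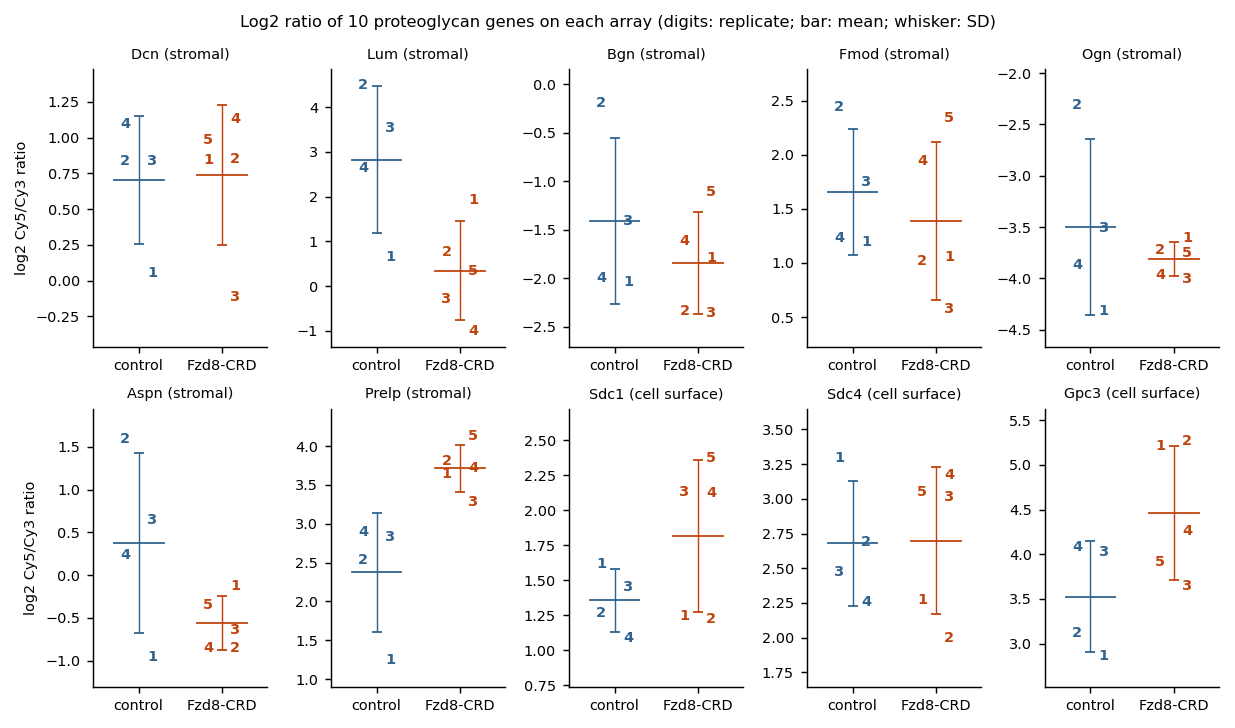
Log2 Cy5/Cy3 ratio (vertical axis, its own range in each panel) of the 10 proteoglycan genes on the 4 control arrays (blue) and the 5 Fzd8-CRD arrays (red). Digits are replicate numbers, horizontal bars are group means and whiskers are SDs. The groups are separate for Prelp and overlap for the other 9 genes.

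Prelp, proline and arginine-rich end leucine-rich repeat protein, links collagen to basement membranes through its heparan-binding end. Its log2 ratio was 3.64, 3.81, 3.28, 3.71 and 4.12 on Fzd8-CRD arrays 1 to 5 and 1.25, 2.53, 2.82 and 2.90 on control arrays 1 to 4. Every Fzd8-CRD array was above every control array, and control replicate 1 was far below the other controls. Groups that do not overlap were found for 19.6% of all genes. The group means were 3.71 ± 0.30 (SD, n = 5) and 2.38 ± 0.77 (SD, n = 4), a difference of 1.34 (SE 0.33, limma adjusted p 0.0273), or 2.52-fold. The reference signal of this probe differed by 0.021 between the groups (adjusted p 0.813), and Cy5 alone gave a difference of 1.52 (adjusted p 0.0287). Without control replicate 1 the difference was 0.96 and the adjusted p 0.0179, and without control replicate 2 they were 1.39 and 0.0360. Without Fzd8-CRD replicate 1, 2, 4 or 5 the adjusted p lay between 0.0551 and 0.0600, so the call was lost, with differences of 1.23 to 1.35.

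A second, dim probe of Prelp was not called. The called probe lies at chr1:135726768-135726827 on the minus strand in the mm8 build, as the scanner files give it, and the second lies at chr1:135731455-135731514 on the same strand and is assigned to the same transcript. On the second probe the difference was 0.078 (SE 0.11, limma adjusted p over all kept probes 0.698), where 14.6% of all kept probes passed. Its Cy5 signal was dim, with a log2 value of 6.53 to 7.55 on the 9 arrays, against 11.3 to 14.8 for the called probe. In Cy5 it read 7.13, 7.09, 6.85, 7.10 and 7.55 on Fzd8-CRD arrays 1 to 5 and 6.53, 6.66, 6.86 and 6.72 on control arrays 1 to 4. In Cy5, Fzd8-CRD replicates 1, 2, 4 and 5 were above every control, the direction of the called probe. The ratio of the second probe did not separate the groups. It was 0.48, 0.62, 0.21, 0.40 and 0.46 on Fzd8-CRD arrays 1 to 5. On control arrays 1 to 4 it was 0.11, 0.35, 0.54 and 0.42, with control replicate 3 above Fzd8-CRD replicates 1, 3, 4 and 5. The mean of both probes gave a difference of 0.71 with an adjusted p of 0.0555. The sources used here do not settle whether the probes lie in the coding part or in a UTR.

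Lum encodes lumican, a keratan sulfate proteoglycan that regulates the diameter of collagen fibrils, and it had the lowest difference of the 10 genes. The ratio was 1.92, 0.76, -0.29, -1.01 and 0.33 on Fzd8-CRD arrays 1 to 5 and 0.65, 4.49, 3.54 and 2.63 on control arrays 1 to 4. Control replicates 2, 3 and 4 were above every Fzd8-CRD array, while control replicate 1 lay within the range of the Fzd8-CRD arrays. The difference was -2.49 (SE 0.79), with a 95% confidence interval of -4.25 to -0.73 and a limma adjusted p of 0.0630, which does not pass. Without control replicate 1 it was -3.21 with an adjusted p of 0.0184. Without control replicate 2 it was -1.93 with an adjusted p of 0.114. Lum thus passed or missed the threshold with the presence of a single array. Leaving out control replicate 1 gave 3 calls among the 10 genes (Prelp, Lum and Aspn), against 13.3% of all genes, and leaving out control replicate 2 gave 1 (Prelp), against 16.9%. The reference signal differed by 0.15 and Cy5 alone gave -2.17 (adjusted p 0.0748).

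Aspn encodes asporin, a relative of decorin that binds collagen and TGF-beta. Its ratio was -0.13, -0.85, -0.64, -0.85 and -0.35 on Fzd8-CRD arrays 1 to 5 and -0.96, 1.59, 0.64 and 0.24 on control arrays 1 to 4. As for Lum, control replicates 2, 3 and 4 were above all Fzd8-CRD arrays and control replicate 1 was not. Its Cy5 signal rose well above background on 1 of the 5 Fzd8-CRD arrays, compared with 4 of 4 controls, so it passed the filter on dim probes through the control arrays, where it is higher. The other 9 genes were well above background in Cy5 on all 9 arrays. The difference was -0.94 (SE 0.43, limma adjusted p 0.163). Without control replicate 1 it was -1.39 (adjusted p 0.0244), and without control replicate 2 it was -0.54 (adjusted p 0.304). Cy5 alone gave -1.10 (adjusted p 0.0454). The scanner software's own log ratio, which adds no offset to dim spots, gave -2.48 (adjusted p 0.0448).

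Ogn and Bgn were also highest on control replicate 2. Ogn encodes osteoglycin, a keratan sulfate proteoglycan that binds collagen fibrils. Its ratio was -3.61, -3.72, -4.01, -3.97 and -3.75 on Fzd8-CRD arrays 1 to 5 and -4.32, -2.31, -3.51 and -3.87 on control arrays 1 to 4. The Fzd8-CRD arrays lay within 0.40 of each other and inside the control range, which spanned 2.0. The difference was -0.31 (SE 0.34, limma adjusted p 0.550), and without control replicate 2 it was 0.086. Bgn encodes biglycan, which binds collagen and TGF-beta and can activate Toll-like receptors when released from matrix. Its ratio was -1.79, -2.33, -2.36, -1.61 and -1.11 on Fzd8-CRD arrays 1 to 5 and -2.04, -0.20, -1.41 and -2.0 on control arrays 1 to 4. Control replicate 2 was the highest array and the other controls lay among the Fzd8-CRD arrays. The difference was -0.43 (SE 0.40, limma adjusted p 0.477), with a 95% confidence interval of -1.34 to 0.47. A second Bgn probe was not well above background in Cy5 on any array and gives no value.

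Dcn and Fmod had differences near 0 beside their errors. Dcn encodes decorin, which binds type I collagen and TGF-beta. Its ratio was 0.84, 0.85, -0.11, 1.13 and 0.98 on Fzd8-CRD arrays 1 to 5 and 0.056, 0.83, 0.83 and 1.09 on control arrays 1 to 4. Fzd8-CRD replicate 3 and control replicate 1 were lower than the rest of their groups, and the groups covered nearly the same range. The difference was 0.035 (SE 0.29, limma adjusted p 0.945), with a 95% confidence interval of -0.60 to 0.67. The Dcn probe's reference signal was lower by -0.47 on the Fzd8-CRD arrays (adjusted p 1.2e-05), and Cy5 alone gave -0.46 (adjusted p 0.251), so the ratio and the Cy5 signal differ in sign. Fmod encodes fibromodulin, which binds collagen and modulates crosslinking of fibrils. Its ratio was 1.05, 1.02, 0.58, 1.94 and 2.34 on Fzd8-CRD arrays 1 to 5 and 1.2, 2.44, 1.75 and 1.23 on control arrays 1 to 4. The groups overlapped, although Fzd8-CRD replicates 1, 2 and 3 were below every control. The Fmod difference was -0.27 (SE 0.39, limma adjusted p 0.665), with a 95% confidence interval of -1.15 to 0.62.

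Gpc3 encodes glypican 3, a lipid-anchored core protein that binds Wnt and Hedgehog ligands, and it had the largest difference of the cell-surface type. Its ratio was 5.21, 5.27, 3.64, 4.27 and 3.91 on Fzd8-CRD arrays 1 to 5 and 2.87, 3.12, 4.02 and 4.08 on control arrays 1 to 4. Fzd8-CRD replicates 1 and 2 were the highest arrays, replicate 4 was also above all controls, and replicates 3 and 5 fell within the control range. The difference was 0.94 (SE 0.41, limma adjusted p 0.148). The reference signal was well above background on 1 of 9 arrays, so that the denominator of this ratio lies close to background. In Cy5 alone the normalized log2 signal was 10.4 to 11.5 on the Fzd8-CRD arrays and 8.54 to 9.42 on the control arrays. These ranges do not overlap, and the Cy5 difference was 1.92 (adjusted p 0.00274), where 19.0% of all genes passed. Without background correction the ratio difference was 1.47 and also passed (adjusted p 0.0176), whereas the scanner's own log ratio gave 0.43 (adjusted p 0.445).

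Sdc1 encodes syndecan 1, the main heparan sulfate proteoglycan of epithelia. Its ratio was 1.24, 1.23, 2.13, 2.12 and 2.37 on Fzd8-CRD arrays 1 to 5 and 1.61, 1.27, 1.46 and 1.09 on control arrays 1 to 4. Fzd8-CRD replicates 3, 4 and 5 were above every control array, and replicates 1 and 2 lay among the controls. The difference was 0.46 (SE 0.27, limma adjusted p 0.257), with a 95% confidence interval of -0.13 to 1.06. Cy5 alone gave 0.82 (adjusted p 0.0808). Sdc4 encodes syndecan 4, a co-receptor of integrins at focal adhesions. Its ratio was 2.27, 2.0, 3.02, 3.17 and 3.05 on Fzd8-CRD arrays 1 to 5 and 3.29, 2.69, 2.47 and 2.26 on control arrays 1 to 4. Fzd8-CRD replicates 1 and 2 were again the lowest of their group, but control replicate 1 was the highest of all arrays. The difference was 0.021 (SE 0.30, limma adjusted p 0.968), with a 95% confidence interval of -0.65 to 0.69, and a second Sdc4 probe gave -0.042 (adjusted p over all kept probes 0.933).

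**Figure D2:**
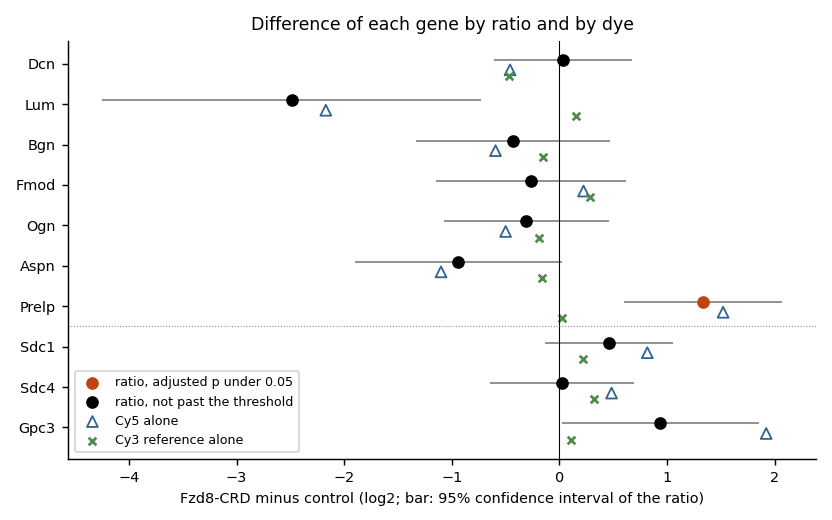
Log2 difference, Fzd8-CRD minus control (horizontal axis), for each of the 10 genes, stromal type above the dotted line and cell-surface type below it. Circles are the ratio with its 95% confidence interval, triangles are Cy5 alone and crosses are the Cy3 reference alone. Prelp at 1.34 is the only circle past the threshold, and the Gpc3 triangle at 1.92 lies to the right of its circle at 0.94.

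The dyes taken alone gave other counts than the ratio. In Cy5 alone 3 of the 10 genes were called, with Prelp and Gpc3 higher and Aspn lower, against 19.0% of all genes. In the Cy3 reference alone 7 of the 10 were called, against 59.2% of all genes, and differences ran from -0.47 for Dcn to 0.33 for Sdc4. The reference thus differed between the groups of slides for most genes, whether listed here or not. For Prelp, Bgn and Gpc3 the reference difference did not pass, with values of 0.021, -0.15 and 0.11.

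Single arrays were extreme for several genes of the stromal type. Control replicate 1 was the lowest control for 7 of 7 of them and control replicate 2 the highest control for 5 of 7, the exceptions being Dcn and Prelp. Fzd8-CRD replicate 3 was the lowest of its group for 5 of 7 (Dcn, Bgn, Fmod, Ogn and Prelp). After each gene was centred on its mean over the 9 arrays, the median of the stromal type was -0.67, 1.36, 0.24 and -0.19 on control arrays 1 to 4 and 0.063, -0.49, -0.71, 0.037 and 0.26 on Fzd8-CRD arrays 1 to 5. The spread among the controls was thus wider than the distance between the groups. For the cell-surface type the medians were 6.3e-05, -0.35, -0.16 and -0.43 on control arrays 1 to 4 and -0.37, -0.39, 0.33, 0.48 and 0.36 on Fzd8-CRD arrays 1 to 5. Fzd8-CRD replicates 3, 4 and 5 were above all controls there, and replicates 1 and 2 were not.

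Markers of other cell types differed between the same arrays. The centred median of 15 fibroblast markers was -0.61, 1.08, 0.75 and 0.23 on control arrays 1 to 4 and 0.17, -0.32, -0.57, -0.54 and -0.39 on Fzd8-CRD arrays 1 to 5. Control replicate 2 was the highest array and control replicate 1 the lowest control, as in the stromal type, whereas on control replicate 4 and Fzd8-CRD replicates 4 and 5 the medians had opposite signs. Control replicate 2 was also the highest array for the centred medians of the macrophage (1.54), lymphocyte (1.62), erythrocyte (5.12), endothelial (1.46), pericyte (1.35) and adipocyte (0.49) lists, so its high values are not limited to fibroblast markers. Of the 15 fibroblast markers 3 fell (Thy1, Fap and Col6a3), against 7.75% of all genes called lower, and 0 rose. Differences were below 0 for 12 of the 15, where 10399 of all 18262 genes were below 0. The 3 above 0, all uncalled, were Fbln2 (1.01), Pdgfra (0.81) and Postn (0.41). The median difference of the 15 was -0.75. The mean ratio over the list was -1.51 to -0.72 on the Fzd8-CRD arrays and -1.59 to 0.18 on the controls. A second Thy1 probe gave -0.16 (SE 0.25). Col6a3, at a limma adjusted p of 0.0497, lost its call without control replicate 2 (adjusted p 0.0810). Without control replicate 2, 1 rose (Pdgfra, 1.20, limma adjusted p 0.0153) and 2 fell. A second Pdgfra probe gave 0.48 (SE 0.13) over all 9 arrays. Of the 15 markers, 0 were below background on all arrays of a group. Dpt, uncalled, was well above background in Cy5 on 1 of 5 Fzd8-CRD arrays and 4 of 4 controls. It passed the filter on dim probes mainly through the controls, where it is higher. Fap, called lower, was so on 3 of 5 Fzd8-CRD arrays and 4 of 4 controls. All 11 endothelial markers fell (median -2.05), as did 4 of 7 pericyte markers (median -1.54), 1 of 9 macrophage markers, 1 of 4 measured adipocyte markers and 3 of 4 measured erythrocyte markers, against 7.75% of all genes called lower. The macrophage marker called, Mrc1, was well above background in Cy5 on 1 of 5 Fzd8-CRD arrays and 4 of 4 controls. It passed the filter on dim probes through the controls, where it is higher, so the macrophage count supports no direction. Cidec of the adipocyte list and Slc4a1 of the erythrocyte list, both uncalled, were also well above background on 1 of 5. Pecam1 and Tek of the endothelial list were so on 2 of 5. Among epithelial markers, 3 of 9 basal ones rose (median 0.79), against 6.59% of all genes called higher, and 3 of 11 luminal ones fell (median -0.66). The basal genes called were Krt5, Lama3 and Cnn1. For Krt5 the reference signal differed by -0.79 (limma adjusted p 0.00076) and Cy5 alone gave 0.082 (adjusted p 0.801). Cy5 alone gave 1.46 for Lama3 (adjusted p 0.0480) and 1.15 for Cnn1 (adjusted p 0.0527). A second Lama3 probe gave 0.0098, and Cnn1 lost its call without control replicate 2 (adjusted p 0.0672). Without control replicate 2, 4 basal markers rose, 1 luminal marker fell and 0 macrophage markers fell. Of 9 lymphocyte markers 0 were called, with 1 (Cd3e) at an unadjusted p under 0.05, and of 7 measured cartilage markers Ucma was called higher and Col2a1 lower, the latter with a Cy5 signal that differed in the other direction. In the Fzd8-CRD group the Cy5 signals of Itgam, Cd79a and Cd8a stayed near background throughout. The part of any of these cell types in the values of Lum, Aspn, Ogn, Bgn, Prelp or Gpc3 was not tested.

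**Figure D3:**
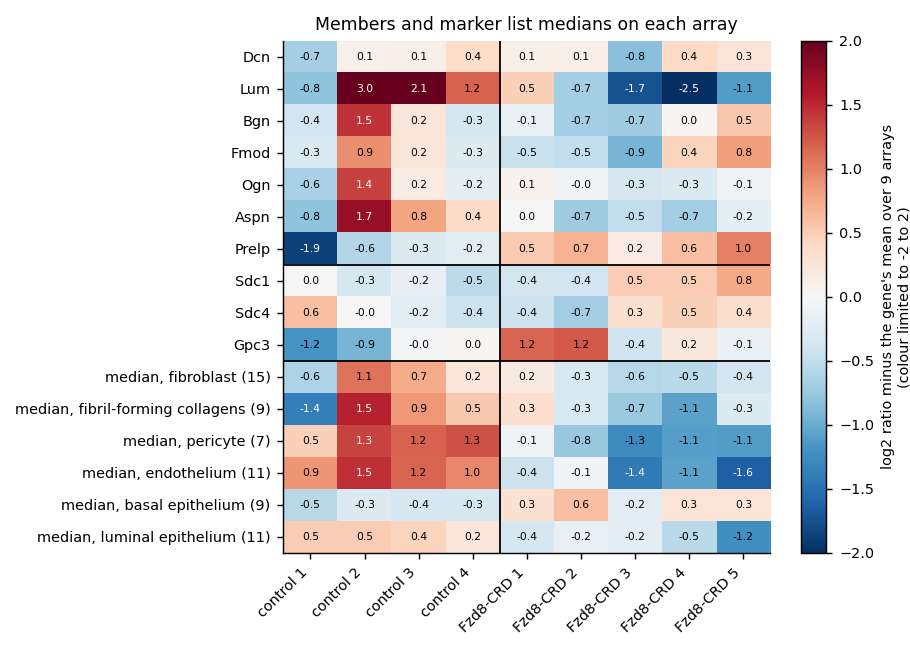
Log2 ratio of each of the 10 genes minus its mean over the 9 arrays (colour and printed value), above the centred medians of 6 lists with the number of measured genes in brackets. Columns are arrays, and colour is limited to -2 to 2. Control replicate 2 is red for Lum, Bgn, Fmod, Ogn, Aspn, the fibroblast markers and the collagens, and control replicate 1 is blue for most of them.

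The promoters ranged widely in base composition. RefSeq promoters (GRCm38.p6, the 250 bases before the annotated start) were found for 8 of the 10 genes, and those of Prelp and Aspn, of the stromal type, and of Sdc1 and Gpc3, of the cell-surface type, are shown because Prelp is the gene that was called and the others show the contrast in base composition. Capitals mark GGGCGG on either strand (the box that Sp1 binds), TATAAA on the sense strand and CTTTG on either strand (the core of the site that TCF and LEF factors bind in Wnt target genes), with overlapping matches counted. The positions, 5′ to 3′ along the gene's own strand, are chr1:133921402-133921651 on the minus strand for Prelp, chr13:49544193-49544442 on the plus strand for Aspn, chr12:8771146-8771395 on the plus strand for Sdc1 and chrX:52613975-52614224 on the minus strand for Gpc3.
Prelp: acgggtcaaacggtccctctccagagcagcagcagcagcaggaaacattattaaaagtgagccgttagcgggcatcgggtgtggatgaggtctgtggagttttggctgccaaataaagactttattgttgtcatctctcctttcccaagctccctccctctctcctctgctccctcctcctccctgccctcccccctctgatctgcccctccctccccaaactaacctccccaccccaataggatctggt
Aspn: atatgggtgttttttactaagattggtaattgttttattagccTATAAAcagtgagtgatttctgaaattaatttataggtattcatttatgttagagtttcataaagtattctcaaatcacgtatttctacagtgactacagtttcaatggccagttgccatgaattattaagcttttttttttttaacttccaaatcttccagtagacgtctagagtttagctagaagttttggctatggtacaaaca
Sdc1: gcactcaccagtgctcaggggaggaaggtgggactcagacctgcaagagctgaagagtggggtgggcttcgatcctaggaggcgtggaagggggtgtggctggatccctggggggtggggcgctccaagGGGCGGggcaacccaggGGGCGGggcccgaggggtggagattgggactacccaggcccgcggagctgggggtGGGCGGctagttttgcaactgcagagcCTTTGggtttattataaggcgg
Gpc3: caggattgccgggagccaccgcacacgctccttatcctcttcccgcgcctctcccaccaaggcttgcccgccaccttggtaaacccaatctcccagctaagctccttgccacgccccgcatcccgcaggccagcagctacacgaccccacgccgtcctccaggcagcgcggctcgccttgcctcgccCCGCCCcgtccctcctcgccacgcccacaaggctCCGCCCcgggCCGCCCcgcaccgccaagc
All 3 cell-surface promoters hold GGGCGG, with 3 matches in Sdc1, 4 in Sdc4 and 3 in Gpc3, and the motif is present in 32.7% of 32851 promoters of the same length. Of the 5 stromal promoters, Bgn holds it with 3 matches. TATAAA is found in Ogn and Aspn, against 7.59% of all promoters. The GC content was 66.0% to 71.6% in the cell-surface promoters and 30.0% in Aspn, 42.0% in Ogn, 51.2% in Fmod, 55.6% in Prelp and 64.4% in Bgn, against a median of 52.4% over all promoters. CTTTG occurs once in each of Bgn, Ogn and Sdc1, against 48.6% of all promoters, and its longer form CTTTGAT, held by 3.21% of all promoters, in 0 of the 8. Prelp and Fmod hold 0 of these 4 motifs. These matches are a description of the letters in these windows.

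Of 10 listed other small leucine-rich repeat genes 8 were measured, and 1 was called, lower. Of these, 4 (Ecm2, Nyx, Epyc and Optc) passed the filter on dim probes through the control arrays, where they are higher, so a count over them supports no direction. The other 4 (Podn, Tsku, Podnl1 and Chad) were well above background on all arrays, 0 of them was called, with 1 (Podn) at an unadjusted p under 0.05, and their differences ran from -0.96 to -0.27. Without control replicate 2 the differences were -0.26 for Podn, -0.21 for Tsku, 0.026 for Podnl1 and -0.015 for Chad. Ecm2, a matrix protein related to decorin, fell by 0.58 on the log2 scale (SE 0.12, limma adjusted p 0.0147), with a Cy5 signal well above background on 4 of 4 controls but on 1 of 5 Fzd8-CRD arrays. Podn, encoding podocan, had a difference of -0.37 (adjusted p 0.0960).

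Of 7 measured genes for other cell-surface heparan sulfate cores 0 passed, with 6 of 7 differences above 0 and a median of 0.25, where 7863 of all 18262 genes were above 0. Sdc2, the syndecan of mesenchymal cells, had a difference of 0.60 (adjusted p 0.169), while a second probe of it gave -0.20. A second probe of Sdc3 gave -0.099. Gpc6 had 0.46 (adjusted p 0.144), Tgfbr3, the betaglycan co-receptor of TGF-beta, 0.36 (adjusted p 0.343) and Gpc4 0.25 (adjusted p 0.405). At an unadjusted p under 0.05, 1 of the 7 (Gpc6) would pass.

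Among 11 measured genes of a mixed list, of basement membrane, aggregating and other proteoglycans and related proteins, 2 fell and 0 rose. Over all genes the shares were 7.75% and 6.59%. Those that fell, Esm1 and Srgn, are among the others. Without control replicate 2, 3 fell, Hapln3 among them (limma adjusted p 0.00577). Over all 9 arrays the Hapln3 reference signal was higher by 0.56 with Fzd8-CRD (adjusted p 1.7e-06). Cy5 alone gave 0.37 (adjusted p 0.380), so for Hapln3 the ratio and the Cy5 signal differ in sign. Esm1, or endocan, a dermatan sulfate proteoglycan secreted by endothelium, had a ratio of 0.46, 0.56, 0.31, -0.26 and -0.36 on Fzd8-CRD arrays 1 to 5 and 3.69, 2.75, 2.58 and 2.61 on control arrays 1 to 4. The groups did not overlap, and the difference was -2.77 (SE 0.28, limma adjusted p 0.00177). Srgn, or serglycin, the proteoglycan of the secretory granules of blood and endothelial cells, had a ratio of 0.35, -0.69, -0.98, -0.059 and -1.09 on Fzd8-CRD arrays 1 to 5 and 1.41, 4.2, 0.84 and 1.95 on control arrays 1 to 4. Its groups also did not overlap, and the difference was -2.59 (SE 0.62, limma adjusted p 0.0249). The 11 endothelial markers fell on the same arrays, and their part in these differences was not tested. Agrn, or agrin, of basement membranes, had a difference of 1.2 (adjusted p 0.0731), while its second probe gave -0.0095. Acan, or aggrecan, of cartilage, had -0.27 (adjusted p 0.152).

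Enzymes that build heparan sulfate held 3 risers among 19 measured genes and 0 that fell, where 6.59% of all genes were called higher. The median of the list was 0.32. Ndst3 and Ndst4, both uncalled, were well above background in Cy5 on 0 of 5 Fzd8-CRD arrays and 4 of 4 controls. These 2 passed the filter on dim probes through the controls, where they are higher, so their differences support no direction. Ext1, one of the polymerases that lengthen the chain, had a ratio of 0.86, 0.75, 0.44, 1.24 and 1.08 on Fzd8-CRD arrays 1 to 5 and -0.26, -0.28, 0.022 and -0.096 on control arrays 1 to 4. Its groups did not overlap, and it rose by 1.03 (SE 0.17, limma adjusted p 0.00751). Hs3st1, a sulfotransferase that makes the antithrombin-binding site, rose by 1.02 (SE 0.26, adjusted p 0.0321), a call lost without control replicate 2 (adjusted p 0.0556). Extl3, which starts the chain, rose by 0.46 (SE 0.11, adjusted p 0.0278) on its brightest probe, while its second probe gave 0.070. The reference signal of the brightest Extl3 probe was higher by 0.74 on the Fzd8-CRD arrays. Cy5 alone gave 1.37 for this probe (limma adjusted p 0.000817), where 19.0% of all genes passed in Cy5. Ndst2, which sulfates the growing chain, had 0.75 (adjusted p 0.0840).

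Of 18 measured enzymes of chondroitin, dermatan and keratan sulfate, 1 rose and 1 fell, with a median of 0.18, near the 6.59% of all genes called higher and 7.75% called lower. Dse, the epimerase that turns chondroitin into dermatan sulfate, rose by 0.61 (SE 0.13, limma adjusted p 0.0151). Chst7, a chondroitin sulfotransferase, fell by 1.05 (SE 0.15, adjusted p 0.00531). Csgalnact2 and Chsy1, which start and lengthen the chain, had differences of 0.51 (adjusted p 0.0692) and 0.94 (adjusted p 0.0910). Among 11 measured genes of the shared linkage and of precursors, 0 passed, with 1 (Xylt2) at an unadjusted p under 0.05 and a median of -0.036. Xylt2, which adds the first sugar to the core protein, had 0.76 (adjusted p 0.0518), and its second probe gave 0.70. Without control replicate 2, 1 gene of this list rose.

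Of the 9 fibril-forming collagens, whose fibrils the stromal core proteins bind, 6 had differences below 0 and the median was -1.08. Col1a2, of type I collagen, had -1.48 (adjusted p 0.153), Col5a3 -1.08 (adjusted p 0.0836) and Col11a2 0.65 (adjusted p 0.134). Col2a1, of cartilage, was called at -1.69 (SE 0.39, limma adjusted p 0.0215), yet its reference signal was higher by 2.84 on the Fzd8-CRD arrays, Cy5 alone gave 1.03 and its second probe -0.21, so the ratio and the Cy5 signal differ in sign. The collagens' centred median was 1.54 on control replicate 2 and -1.37 on control replicate 1, the same arrays that were highest and lowest among the controls for the stromal core proteins. Without control replicate 2 the median of the collagens was -0.67.

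**Figure D4:**
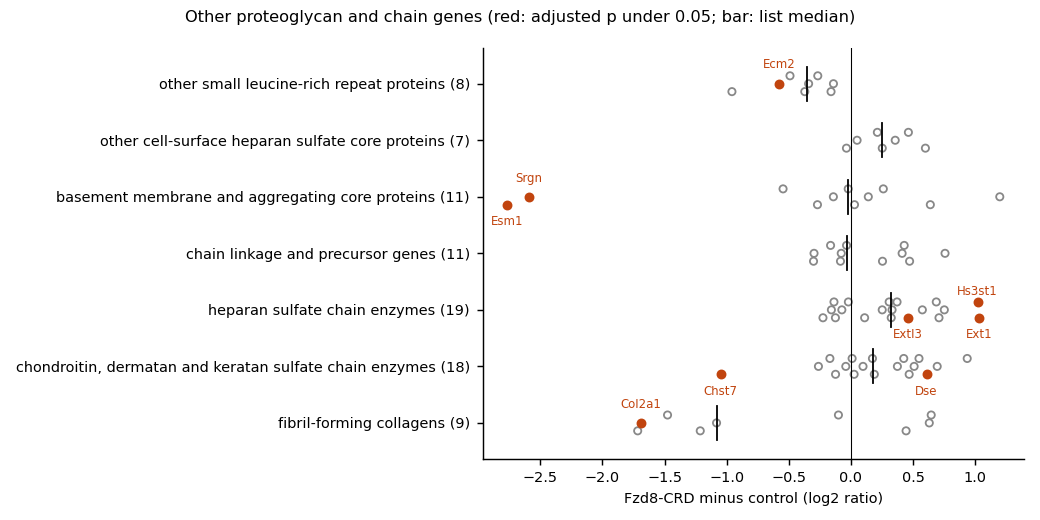
Fzd8-CRD minus control (log2 ratio, horizontal axis) of each measured gene in 7 lists of other proteoglycan and chain genes, with the number measured in brackets. Red points passed the test and are named, and vertical bars are list medians. The heparan sulfate enzymes hold 3 red points above 0, and Esm1 and Srgn lie below -2.5.

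The genes whose profile over the 9 arrays lay nearest to Dcn, by the root-mean-square distance of ratios centred on each gene's own mean, were Gnai1 (0.148), Dag1 (0.151), Ltbp4 (0.179), Tpst1 (0.181) and NAP111629-1 (0.182). None of the other 9 core protein genes was among them. The nearest of these to Dcn was Fmod at 0.505, which ranked 8065 of 18188 genes. Nearest to Sdc1 were Nfat5 (0.209), Mtmr11 (0.212), Ephb2 (0.213), Itga5 (0.217) and Pxdc1 (0.220). Sdc4 ranked 121 of 18188 in distance from Sdc1, at 0.296, and Gpc3 ranked 16833 at 0.985. The 2 syndecans were therefore close in profile on these 9 arrays, while glypican 3 was not.

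**Figure D5:**
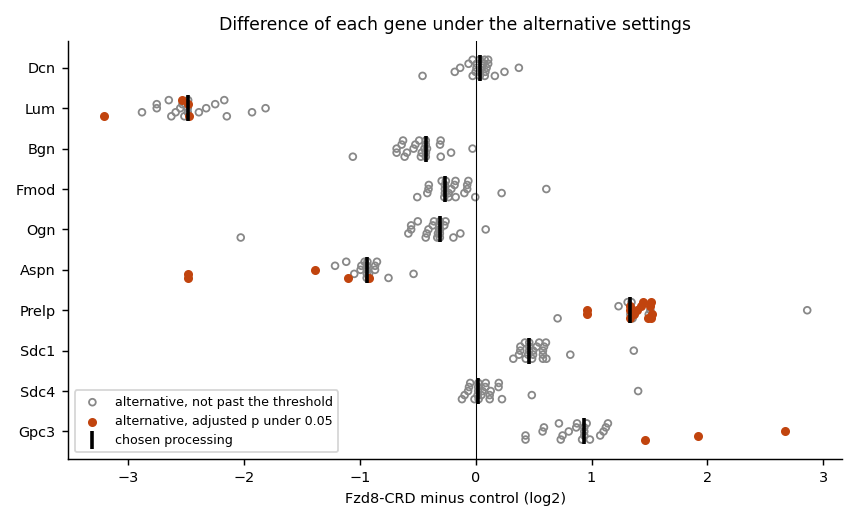
Fzd8-CRD minus control (log2, horizontal axis) of each gene under the chosen processing (black bar) and under the alternative settings (circles, 22 for Aspn and 23 for the others, filled red where the adjusted p was under 0.05). Prelp was above 0 and Lum, Aspn and Bgn below 0 in all of them, and the values of Dcn and Sdc4 lie on both sides of 0.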

How the data were processed

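The 9 arrays were grouped by their treatment label, and replicate numbers follow accession order. The deposited spot intensity is linear, with a foreground mean and a local background median in each dye, and comes from Agilent's Feature Extraction software (version 9.5.3.1), per the file headers. The same deposited files hold the software's own log10 ratio, and the deposited series table holds it as a linear ratio, since on the log2 scale both correlated at 1 on all arrays. The gene names and mm8 positions are those of the Fzd8-CRD files, whereas control files carry mm7 annotation in which 2534 entries of the gene name differ, per the file headers. Genes were named by RefSeq accession (23374 probes), current symbol (6733) or synonym (2919), and 8148 kept the name in the file.

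Each array held 45018 spots, 1639 of them controls. Over all 9 arrays together, 1229 outlier spots of gene probes were left out. Background was corrected by normexp (offset 50) and ratios normalized by loess in limma 3.58.1 (R 4.3.3, with version 1.17.8 of data.table). Probes had to exceed background clearly in Cy5 on 4 or more arrays (26822 did, or 65.1%), and each gene was represented by its brightest probe, which matters for 6122 genes with several. Groups were compared with lmFit and eBayes over all 18262 genes, with Benjamini-Hochberg adjustment and a threshold of 0.05. The dyes were tested singly as well, with quantile normalization between arrays, and 23 alternatives were run in all. The offset moves the ratios of dim spots, and the number of arrays limits the precision. The genes named are all 10 core protein genes, up to 4 with the smallest p in each of the 7 other pathway lists, and the 5 nearest profiles to Dcn and Sdc1. Called marker genes of lists with few calls, and some uncalled markers, were named after their values were seen. The 10 genes and all lists were chosen with earlier results of these data known.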

Additional observations from a re-analysis of the deposited data

Results flagged for a closer look

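Dcn on Fzd8-CRD replicate 3 lay far from the other arrays of its group, at a log2 ratio of -0.11 against 0.84 to 1.13. In all, 20 groups of values were looked at for a distant array, and chance gives about 1 in 20. Without this array the groups of Dcn still overlapped. A dim Dcn probe that the comparison did not use was well above background in Cy5 on 2 Fzd8-CRD arrays and on 0 control arrays. It lies at chr10:96910401-96910460 in mm8, apart from the main probe at chr10:96947287-96947346, and its normalized log2 Cy5 signal was 6.32 to 6.82 on the 9 arrays, against 12.4 to 14.1 for the main probe.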

How the results depend on the processing

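No paired analysis was possible because the replicate numbers follow accession order and pair no arrays. Of all genes, 2619 were called, against 613 with median centring, 1602 with scaling between arrays, 6018 with array weights and 5506 with slide as a random block. The estimated correlation within slides was -0.17, and with all controls on 1 slide a negative value lowers the error of the group difference. With the 2 most similar pairs of arrays averaged, a setting chosen after seeing the data, 338 were called, and 0 core protein genes. Leaving out each array in turn gave 1340 to 3092 genes, 0 to 3 core protein genes, 0 to 3 of the stromal type and 0 of the cell-surface type. The count of core protein genes, 1 as reported, was 0 with median centring, with the mean of probes and with slide mates averaged, each with 0 of the stromal type. It was 2 without background correction (1 cell-surface), with the deposited series table, the scanner software's log ratio, slide as a block, and probes above background on all arrays (each with 2 stromal). It was 3 with Cy5 alone (2 stromal, 1 cell-surface) and with array weights (3 stromal). With scaling between arrays 0 stromal genes and 1 cell-surface gene were called.

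Prelp stayed above 0 in all 23 alternatives and passed in 14 of them. It was 1.51 with median centring (adjusted p 0.113), 2.86 with scaling (adjusted p 0.0845), 1.35 with slide mates averaged (adjusted p 0.0534) and 1.49 with similar pairs averaged (adjusted p 0.0804). Lum was below 0 in 23 of 23 and passed in 4, Aspn in 22 of 22 and passed in 5, and Gpc3 above 0 in 23 of 23 and passed in 3. The scanner software's log ratio and the deposited series table gave the same differences but are counted as separate alternatives. Prelp and Aspn passed in both. Uncalled differences changed sign as follows. Dcn was -0.00061 with median centring, -0.46 with Cy5 alone, -0.13 with array weights, -0.026 with slide mates averaged, and -0.18 to 0.25 with each array left out. Fmod was 0.61 with scaling and 0.22 with Cy5 alone. Ogn was -0.58 to 0.086 with each array left out, the highest without control replicate 2. Sdc4 was -0.010 with the mean of probes and -0.12 to 0.23 with each array left out. The cause was not tested. Dim spots limit Aspn in Cy5 and Gpc3 in Cy3.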
